A study of Mus musculus with 25 samples.

Results

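The RNA of wild-type late 2-cell embryos (WT_L2C, 3 libraries) was compared with that of wild-type MII oocytes (WT_MII, 3 libraries), that is, across the whole span from the egg before fertilisation to the embryo after its first division. The comparison covered every gene whose FPKM (fragments scaled to transcript length and library size, the deposited unit) was at least 1 in at least 3 of these 6 libraries, which was 10974 of the 24412 gene symbols in the files. It sorts those RNAs into ones that were kept, lost or gained. The 6 libraries belong to a series of 25, in which Smarca4, the ATPase subunit of the BAF chromatin remodelling complex, was either intact or deleted in the oocyte. Embryos were made by injecting sperm into MII oocytes (ICSI), and the oocytes came from females 8 to 12 weeks of age, superovulated with 7 IU of the gonadotropin PMSG and, 48 h later, 5 IU of hCG. The females were B6D2F1 hybrids or C57BL/6 mice carrying Smarca4flox/flox and Gdf9 Cre, a driver active in the growing oocyte. Which of these strains gave the wild-type oocytes is not stated library by library in the sources used here, and neither is the source of the sperm, the hour at which embryos were taken or the number of embryos in a library. Other groups enter only beside this comparison: late 2-cell embryos (KO_L2C, 3 libraries) and MII oocytes (KO_MII, 2 libraries) labelled Smarca4 KO, wild-type zygotes at the PN3 pronuclear stage (WT_PN3, 4 libraries) and wild-type early 2-cell embryos (WT_E2C, 3 libraries).

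A fully grown mouse oocyte does not transcribe and lives on stored maternal mRNA. After meiosis resumes and the egg is fertilised, these mRNAs are deadenylated and destroyed in waves. The genome of the embryo starts to be transcribed in the zygote at a low level, and strongly in the 2-cell embryo, first with a short-lived set of 2-cell genes and then with genes of general growth such as those for ribosomes. A net comparison over the span therefore adds up clearance, new transcription and RNAs that are both cleared and made anew, and cannot tell a stable RNA from one that was replaced.

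Values below are FPKM rescaled so that the typical gene has the same level in every library, and differences are on the log2(scaled FPKM + 1) scale, WT_L2C minus WT_MII, which understates the change of genes near 0. FPKM is relative to the rest of the library. No spike-in was named, so a fall or rise of all RNA per embryo cannot be seen, and lower RNA of a gene and a higher total of other RNAs cannot be told apart. The deposited values carry no read counts. Depth is therefore unknown and no counting error is given. Sums of FPKM were 219008 to 232421 in WT_L2C and 244938 to 252440 in WT_MII libraries, and genes with an FPKM of at least 1 numbered 10355 to 10598 in WT_L2C and 9670 to 9707 in WT_MII. Nothing says that replicates came from separate females, so a p-value here reflects library-to-library spread alone, and that may be technical. That spread was uneven: the median SD of a gene was 0.33 (log2) among WT_L2C and 0.064 among WT_MII libraries. The fit gives both groups a shared spread per gene, so the even oocyte libraries lend it certainty that the embryo libraries lack. Confidence intervals may therefore be too narrow and p-values too small.

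The labelled stages matched their markers. Of 9 oocyte markers 8 were called lower and 0 higher in late 2-cell embryos, with a summed level of 313 to 847 in WT_L2C and 3329 to 3477 in WT_MII libraries. Of 7 tested 2-cell markers, out of 8 in the files, 6 were called higher. The summed level of the list was 103 to 392 in WT_L2C and 20.8 to 25.4 in WT_MII libraries. Markers under an FPKM of 1 in all oocyte libraries were tested only through their embryo level. The median log2 difference was 4.82, or 3.62 with no filter. Tcstv1 was the tested marker not called, and it is named here after its value was seen (log2 difference -0.78). Of the 10 cumulus and granulosa markers only Cyp19a1 reached the test, at 0, 0 and 0.78 in WT_L2C and 5.64, 6.39 and 6.23 in WT_MII libraries, and the whole list summed to 0.37 to 1.21 in WT_L2C and 5.84 to 6.71 in WT_MII. Of 8 sperm markers only Prm2, a protamine, was tested (0, 1.96 and 1.25 in WT_L2C and 5.81, 5.91 and 6.80 in WT_MII), and the list summed to 1.50 to 2.75 in WT_L2C and 6.55 to 7.32 in WT_MII. None of 6 blood markers was tested, and their sum was 0.852 to 1.67 in WT_L2C and 0.582 to 0.716 in WT_MII. The part of such cells in the results was not tested. The targeted gene Smarca4 stood at 86.1, 71.5 and 48.8 in WT_L2C and at 26.4, 28.1 and 31.1 in WT_MII libraries, against a mean of 22.0 in KO_L2C and 0.222 in KO_MII libraries.

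WT_L2C replicate 3 stood apart from the other two. Its mean absolute log2 difference to WT_L2C replicates 1 and 2 was 0.551 and 0.513, while those differed from each other by 0.382. It lay nearer to the 3 KO_L2C libraries (0.390, 0.256 and 0.252) than to its own group, and nearer to WT_MII (1.17 to 1.18) than replicates 1 and 2 did (1.35 to 1.38). Smarca4 in it (48.8) was the lowest of its group and still above the mean of KO_L2C. The 834 lost genes described below were a median of 0.42 (log2) higher in replicate 3 than in the mean of replicates 1 and 2, and the 1358 gained genes a median of 0.46 lower (-0.46). Whether this library differs in time of collection, in genotype or by handling was not tested. Counts are given without it where it moves them, and no gene called with all 6 libraries was called in the opposite direction without it.

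Most RNAs differed between the stages. At an adjusted p under 0.05 in limma, 8053 genes were called (73.4% of those tested), of which 4107 were higher (37.4%) and 3946 lower (36.0%) in late 2-cell embryos. The 3 WT_L2C libraries lay all above the 3 WT_MII libraries for 4438 genes (40.4%) and all below them for 4275 (39.0%). A gene is named gained here if it was called with a log2 difference of at least 2, that is 4-fold, which held for 1358 genes (12.4%), and lost if it was called at -2 or below, which held for 834 (7.60%). It is named kept if the 95% confidence interval of its difference lay within a 2-fold change in either direction, which held for 2874 genes (26.2%). Because the spread is shared by both groups, this interval may be too narrow for genes that vary among the embryo libraries. Of the kept genes 776 were also called, since a small difference can be measured with precision. The remaining genes were 2343 called higher and 2742 called lower by less than 4-fold, and 823 undecided. Without WT_L2C replicate 3 there were 1491 gained, 969 lost and 3252 kept genes, of which 1315, 802 and 2751 were in the same class with all libraries.

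**Figure D1:**
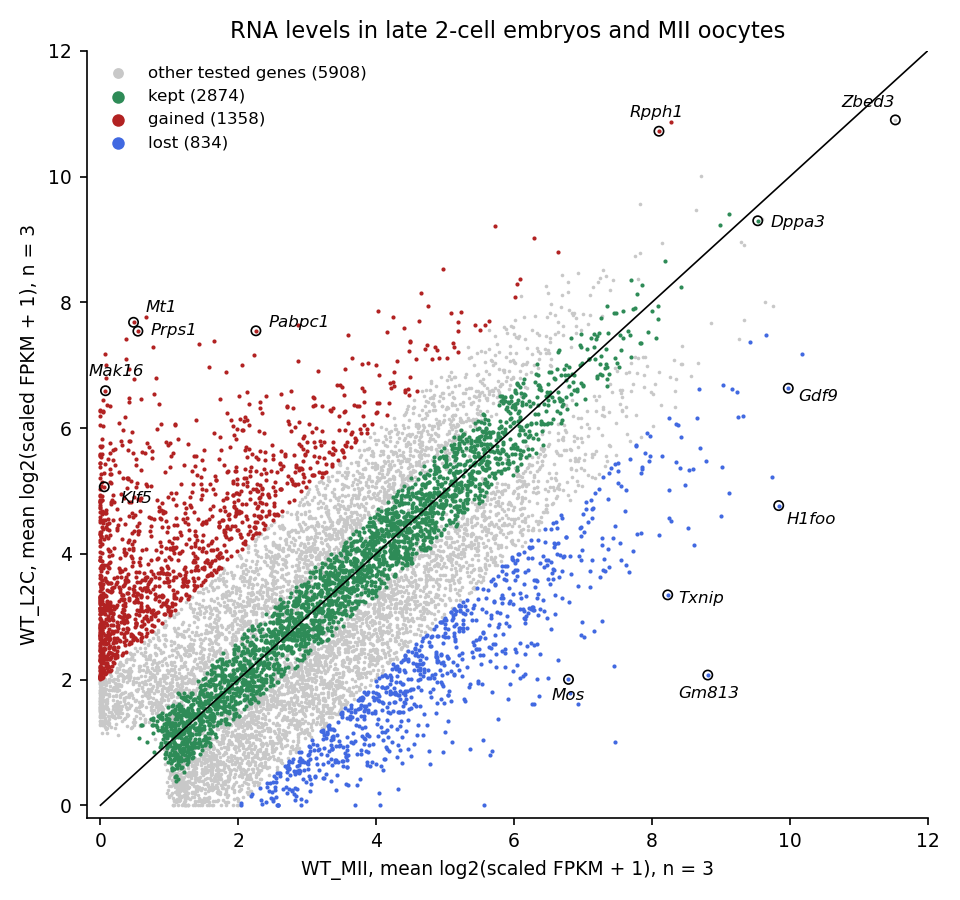
Each point is 1 of 10974 genes, with its mean log2(scaled FPKM + 1) in WT_MII on the horizontal axis and in WT_L2C on the vertical axis (3 libraries each). The line marks equal levels, and 1358 gained genes (red), 2874 kept genes (green) and 834 lost genes (blue) are coloured. Gained genes crowd at the left edge, where oocytes hold almost none of the RNA. Lost genes lie at 2 or more on the horizontal axis by definition.

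The exchange was large in amount as well as in number. Gained genes took 22.8%, 21.2% and 16.6% of all FPKM in the WT_L2C libraries and 1.96%, 1.99% and 1.99% in the WT_MII libraries. Lost genes took 2.51%, 2.64% and 3.88% in WT_L2C and 22.2%, 22.6% and 22.3% in WT_MII. Kept genes took nearly equal parts, 25.9%, 26.6% and 27.7% in WT_L2C and 26.4%, 26.3% and 26.3% in WT_MII. Some genes crossed an FPKM of 1: 1230 genes were under 1 in all WT_MII and at least 1 in all WT_L2C libraries, and 602 the reverse. A further 7828 were at or above 1 in all 6. Crossing this level was often a small change. Of the 1230 genes 710 were gained and 14 kept (median log2 difference 2.25). Of the 602 genes 94 were lost and 53 kept (median -1.22).

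The largest rise was that of Mt1, a metallothionein that binds zinc and other metals. It stood at 231, 147 and 251 in WT_L2C and at 0.351, 0.257 and 0.598 in WT_MII libraries, a log2 difference of 7.20 ± 0.23 (SE, limma adjusted p = 2.26e-06). Its neighbour and paralog Mt2 moved alike, with 162, 103 and 176 in WT_L2C and 0.124, 0.0238 and 0 in WT_MII libraries (7.11). Prps1, which makes the ribose phosphate precursor of nucleotides, was among the most even of the risers, at 202, 179 and 175 in WT_L2C and 0.463, 0.425 and 0.483 in WT_MII libraries (7.00 ± 0.12 SE, adjusted p = 8.89e-07). Rmrp, the RNA of the RNase MRP that cuts the ribosomal RNA precursor, was at 347, 258 and 115 against 0.435, 0.568 and 0.756 (7.11). In each of these 4 genes the groups were far apart, and for Rmrp the third WT_L2C library was the lowest. The other 6 of the 10 largest rises were Slc34a2, a phosphate transporter (7.04), Vimp, a selenoprotein of the endoplasmic reticulum (6.93), Ctsl, the lysosomal protease cathepsin L (6.73), Btbd18 (6.72), Mta2, a subunit of the NuRD deacetylase complex (6.52), and Mak16, a ribosome assembly factor (6.52). Each of these 10 had a mean of at most 0.586 in WT_MII libraries, so the size of its log2 difference depends on the value of 1 added before taking logs.

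Among the largest falls, H1foo, the linker histone of the oocyte, stood at 16.0, 22.5 and 49.4 in WT_L2C and at 860, 927 and 959 in WT_MII libraries (-5.07 ± 0.37 SE, limma adjusted p = 3.3e-05). Txnip, the thioredoxin-interacting protein, was at 9.30, 8.59 and 9.64 in WT_L2C and 296, 308 and 293 in WT_MII libraries (-4.88 ± 0.10 SE, adjusted p = 8.89e-07). Gm813 fell the most, to 1.20, 3.91 and 5.87 in WT_L2C libraries, against 461, 466 and 417 in WT_MII libraries (-6.74). All 3 genes had oocyte levels many times above any embryo library, and H1foo and Gm813 were highest in the third WT_L2C library. The others of the 10 were E330017A01Rik (-6.47), the glutaredoxin Glrx (-5.33), Cpsf4l (-5.23), Rgs2, a regulator of G protein signalling (-5.03), Ninj2 (-4.85), Fam151a (-4.82) and Rnaset2a. Rnaset2a was listed at 0 in all 3 WT_L2C libraries and at 56.6, 60.0 and 29.1 in WT_MII libraries. It has a near-identical copy, so its own value is uncertain.

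The upstream sequences of 6 genes are given here, chosen for a large change or an abundant RNA: Mt1 and Prps1 from the largest rises, Hist1h1a as an abundant RNA that rose, H1foo and Zp3 from the lost genes, and Btg4, which was abundant in both groups and undecided. They are RefSeq sequences of build GRCm38.p6, 250 bases before to 50 bases from each gene's start, all on the plus strand: Mt1 at chr8:94178839-94179138, Prps1 at chrX:140456353-140456652, Hist1h1a at chr13:23763418-23763717, H1foo at chr6:115944681-115944980, Zp3 at chr5:135979855-135980154 and Btg4 at chr9:51115751-51116050. The GENCODE annotation (vM21, GRCm38) places Btg4 at chr9:51060901-51119875. Its window here lies inside that span, so the RefSeq start used differs from the first base in GENCODE. Capitals mark matches, on either strand, to 3 motifs that do not overlap in these windows. The TATA box was searched for as TATAAA. The CCAAT box was searched for by those letters. The GC box was searched for as GGGCGG.
Mt1: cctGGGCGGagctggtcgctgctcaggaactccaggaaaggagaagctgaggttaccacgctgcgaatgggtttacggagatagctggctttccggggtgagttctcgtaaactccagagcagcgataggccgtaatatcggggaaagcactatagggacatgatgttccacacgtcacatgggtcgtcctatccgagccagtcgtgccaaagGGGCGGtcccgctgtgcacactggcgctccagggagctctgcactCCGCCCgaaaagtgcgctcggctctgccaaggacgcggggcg
Prps1: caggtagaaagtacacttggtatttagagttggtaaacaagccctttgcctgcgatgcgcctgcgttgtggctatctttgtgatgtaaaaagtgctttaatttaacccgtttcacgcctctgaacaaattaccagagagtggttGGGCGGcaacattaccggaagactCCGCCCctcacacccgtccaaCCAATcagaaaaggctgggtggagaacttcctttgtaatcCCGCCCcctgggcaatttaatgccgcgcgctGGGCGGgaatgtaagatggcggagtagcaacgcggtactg
Hist1h1a: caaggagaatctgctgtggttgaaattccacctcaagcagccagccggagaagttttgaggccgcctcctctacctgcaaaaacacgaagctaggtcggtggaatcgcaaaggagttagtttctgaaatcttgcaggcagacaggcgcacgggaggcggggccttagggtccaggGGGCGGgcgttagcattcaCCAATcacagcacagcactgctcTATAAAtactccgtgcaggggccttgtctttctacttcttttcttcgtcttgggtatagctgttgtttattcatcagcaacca
H1foo: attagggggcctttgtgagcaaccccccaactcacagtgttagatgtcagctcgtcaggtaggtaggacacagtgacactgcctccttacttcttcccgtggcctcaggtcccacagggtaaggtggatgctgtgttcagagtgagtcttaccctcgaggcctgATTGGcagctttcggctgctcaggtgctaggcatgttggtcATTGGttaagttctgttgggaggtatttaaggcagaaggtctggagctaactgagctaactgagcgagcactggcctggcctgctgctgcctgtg
Zp3: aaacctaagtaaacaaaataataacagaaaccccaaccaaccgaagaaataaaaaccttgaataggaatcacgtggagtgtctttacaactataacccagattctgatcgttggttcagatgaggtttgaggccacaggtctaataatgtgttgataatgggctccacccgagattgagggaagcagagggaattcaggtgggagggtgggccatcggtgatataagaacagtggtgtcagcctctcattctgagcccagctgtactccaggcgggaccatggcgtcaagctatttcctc
Btg4: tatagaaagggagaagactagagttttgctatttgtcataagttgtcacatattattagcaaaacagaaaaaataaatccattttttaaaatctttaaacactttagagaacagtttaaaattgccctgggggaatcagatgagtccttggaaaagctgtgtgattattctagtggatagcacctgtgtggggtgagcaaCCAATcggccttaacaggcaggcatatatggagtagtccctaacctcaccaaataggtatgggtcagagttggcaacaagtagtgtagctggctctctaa

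Counting the start base as 1 and the base before it as -1, and giving the leftmost base of each match, Hist1h1a held all 3 motifs, the GC box at -75, the CCAAT box at -56 and the TATA box at -33. Mt1 held GC boxes at -247, -37 and 9, and Prps1 held 4 of them (-106, -82, -21 and 11) and a CCAAT box at -61. H1foo held CCAAT boxes at -86 and -45 on the minus strand, Btg4 held 1 at -50, and the Zp3 window held none of the 3 letter strings. Of all 27025 promoters in the RefSeq table, 14.2% held the TATA box letters, 37.9% those of the CCAAT box and 35.9% those of the GC box in windows of this length. That table includes many genes that were not tested here, so these shares are no background for the tested genes. A match is only a match of letters, and no comparison of classes was made, because fewer than 80% of the gained genes had a promoter in the table.

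Most genes of the 2-cell programme rose. Of 35 tested members, out of 45 in the files, 31 were called higher and 2 lower, 30 of the 31 by at least 4-fold. The median log2 difference was 3.13 (2.86 without WT_L2C replicate 3) against 0.001 for all tested genes. Members under an FPKM of 1 in all oocyte libraries were tested only through their embryo level, so part of this share was set by the filter. With no filter the median of the list was 2.85. Zfp352, a zinc finger gene of the 2-cell stage, was at 18.8, 18.0 and 72.9 in WT_L2C and 0, 0 and 0.0396 in WT_MII libraries (4.90, limma adjusted p = 0.000151). Usp17lb and Usp17lc, of a family of deubiquitinases, rose by 5.82 and 5.20. Gm4850 rose by 5.47. Tdpoz4, of a family of speckle-type BTB proteins, and B020004C17Rik were listed at 0 in every WT_MII library and stood at 29.1, 20.7 and 33.7 (Tdpoz4) and 56.2, 47.7 and 36.5 (B020004C17Rik) in WT_L2C libraries. Most of these genes come in near-identical copies between which reads may be shared, so single members are uncertain. The third embryo library held the most of them: the summed level of the list was 787, 833 and 1551 in WT_L2C and 348, 354 and 346 in WT_MII libraries. Zscan4d, a telomere-associated zinc finger gene of the 2-cell embryo, was at 4.11, 4.57 and 33.5 in WT_L2C and 0.674, 0.983 and 0.903 in WT_MII libraries (2.43, adjusted p = 0.017), and its difference was 1.53 without WT_L2C replicate 3. The 2 lower members were Arg2, an arginase (-2.12), and Zfp750 (-2.62). Dux, the transcription factor upstream of this programme, did not reach the test, with 0.532, 0.440 and 1.57 in WT_L2C and 0, 0.0327 and 0.0250 in WT_MII libraries.

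The Obox homeobox family was split between the classes. Obox6 rose to 120, 81.6 and 55.9 in WT_L2C libraries, against 0.121, 0.073 and 0 in WT_MII (6.28), and Obox3 to 30.0, 34.2 and 85.5, against 0.601, 0.239 and 0.458 (5.00). Obox2 fell to 19.1, 16.2 and 39.9 in WT_L2C libraries, against 544, 509 and 489 in WT_MII (-4.41), and Obox1 to 24.8, 33.1 and 96.0, against 330, 331 and 315 (-2.89). Over the 6 tested members 2 were called higher and 3 lower.

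RNAs for making ribosomes rose for the most part. Of 85 cytosolic ribosomal protein genes 57 were called higher (67.1%, against 37.4% of all genes), 5 lower and 19 were kept, with a median of 0.91. Their summed level was 9620, 7695 and 5972 in WT_L2C and 3931, 4072 and 4113 in WT_MII libraries, so it was lowest of the embryos in replicate 3 and above the oocytes in all 3. Rps23, a protein of the small subunit, was at 314, 248 and 158 in WT_L2C and 12.5, 17.8 and 16.1 in WT_MII libraries (3.83, limma adjusted p = 2.68e-05). Rpl9 (5.20), Rpl10l, a retrogene copy of Rpl10 (4.70), and Rps19 (3.86) were the other members with the largest differences. Lower were Rpl17 (-0.72), Rpl36 (-1.11, not called with 13 or 25 libraries in the fit, limma adjusted p = 0.159 and 0.0674), Rpl5, which binds the 5S ribosomal RNA (-1.07), the paralog Rpl22l1 (-1.14) and Rpl7a (-0.57, not called without WT_L2C replicate 2 or WT_MII replicate 2 or 3, adjusted p = 0.0596 to 0.0623). Ribosomal protein genes have many processed copies in the genome, and reads may be shared with them.

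The assembly line that turns these proteins and ribosomal RNA into ribosomes moved with them. Of 108 ribosome biogenesis genes 72 were called higher and 10 lower (median 1.16). Nop2, a methyltransferase of ribosomal RNA, was at 76.3, 74.2 and 48.1 in WT_L2C and 1.09, 1.07 and 1.21 in WT_MII libraries (4.95, limma adjusted p = 4.07e-06), and Nop16, Rrs1 and Nol11 rose by 4.82, 4.82 and 4.80. Riok1, a kinase of small subunit maturation, went the other way, at 13.3, 18.2 and 35.9 in WT_L2C and 181, 176 and 170 in WT_MII libraries (-3.03), as did the GTPase Bms1 (-2.60) and Noc4l (-2.01). Of 14 RNA polymerase I genes 10 were called higher and 3 lower (median 1.82). The subunit Polr1c (3.98), the factor Ubtf that shapes active ribosomal RNA genes (3.82) and the terminator Ttf1 (3.23) rose, while Polr1d (-0.85), Taf1a (-1.69) and Taf1b (-1.26) fell. The ribosomal RNA precursor Rn45s itself was at 2480, 1890 and 1400 in WT_L2C and 290, 315 and 320 in WT_MII libraries (2.60, adjusted p = 4.89e-05). These libraries were depleted of ribosomal RNA, so that level is what depletion left.

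Small nucleolar RNAs, which guide the modification of ribosomal RNA, had the highest share called in 1 direction among lists with at least 5 tested members. Of 119 in the files 90 were tested. Of these, 87 were called higher (96.7%) and none lower, 74 of them by at least 4-fold, with a median of 2.77 and a lowest member at -0.31. A member under an FPKM of 1 in all oocyte libraries passed the filter only through its embryo level, so part of this share was set by the filter. With no filter the median was 2.57. The summed level of all 119 was 4991, 4689 and 2730 in WT_L2C and 393, 433 and 447 in WT_MII libraries. Snora68 was at 70.1, 71.7 and 36.5 in WT_L2C and 2.49, 1.98 and 2.57 in WT_MII libraries (4.12, limma adjusted p = 2.32e-05), and Snora65 and Snora78 rose by 4.02 and 3.95. Rpph1, the RNA of RNase P that trims tRNAs, was at 1740, 1830 and 1500 in WT_L2C and 296, 299 and 232 in WT_MII libraries (2.62), and the vault RNA Vaultrc5 at 890, 668 and 355 against 51.3, 52.2 and 52.1 (3.50). These transcripts are about as short as a sequenced fragment or shorter, so their FPKM is an uncertain measure of level. Differences of one such gene between groups use the same length and are less exposed to this.

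Most small nucleolar RNAs of the mouse are cut from introns of other genes, which allowed their change to be set beside that of the host. In the GENCODE annotation (vM21, GRCm38) 81 of the 84 tested genes annotated as snoRNA by RefSeq lay inside a gene on the same strand, and for 77 that host was itself tested, 59 hosts in all. The 77 rose by a median of 2.83 and their hosts by 1.05, and the small RNA's difference was above its host's in 69 of 77. Small RNAs under an FPKM of 1 in all oocyte libraries were tested only through their embryo level. An example is Snord42b (mean 0.079 in WT_MII) inside Rpl23a (112). Some hosts were near 0 in oocytes too, such as Rbmx (0.202). Part of the contrast with the hosts may therefore have been set by the filter. Of 64 gained small RNAs with a tested host, the host was gained for 14, higher by less than 4-fold for 30, kept for 14, undecided for 5 and lower for 1. Snord58b, for example, averaged 43.2 in WT_L2C and 5.11 in WT_MII (2.84), inside Rpl17, which fell (-0.72). The reverse order was seen for Snora15 (2.73) inside Cct6a, a chaperonin subunit (4.77), and for Snora23 (3.63) inside the importin Ipo7 (4.11). Several small RNAs share a host, and fragments of an unspliced host cannot be told apart from those of the small RNA.

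**Figure D2:**
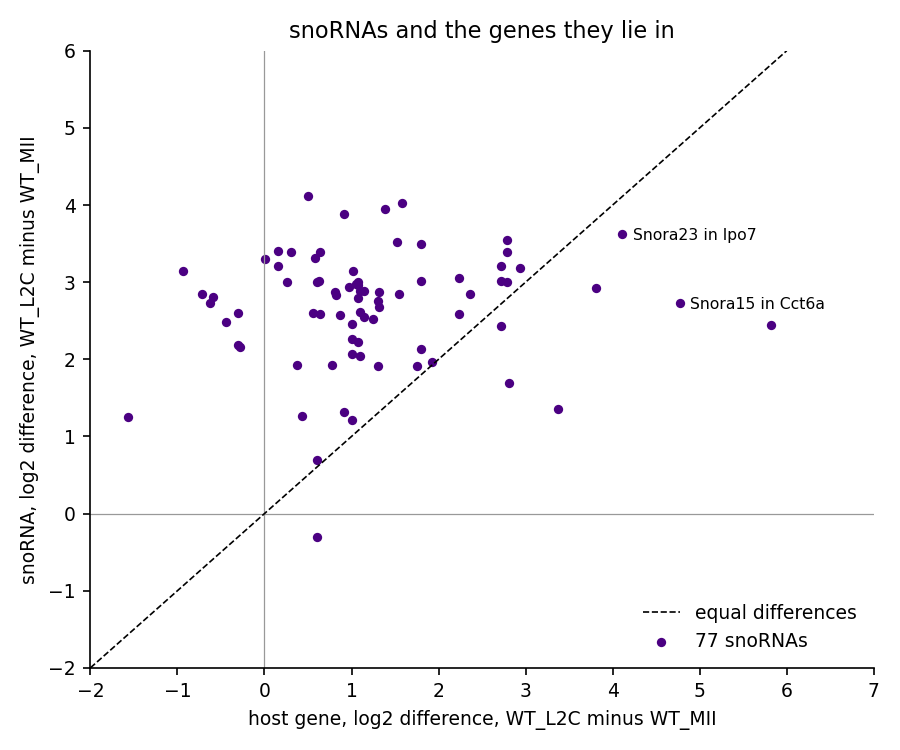
Each point is 1 of 77 snoRNA genes, with the log2 difference (WT_L2C minus WT_MII) of its host gene on the horizontal axis and its own on the vertical axis. The dashed line marks equal differences, and 69 points lie above it, including ones whose host was at or below 0. Small RNAs near 0 in oocytes were tested only through their embryo level, which favours points above the line.

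Histone genes that are used in S phase rose together as well. Of 63 tested replication-dependent histone genes 56 were called higher (88.9%) and 2 lower, with a median of 2.21, and 41 were gained. Hist1h2ak was at 37.6, 36.0 and 34.4 in WT_L2C and 0.181, 0.313 and 0.429 in WT_MII libraries (4.83, limma adjusted p = 1.84e-06), and Hist1h2bm and Hist1h2af rose by 4.78 and 4.76. The linker histone gene Hist1h1b was listed at 0 in all WT_MII libraries and stood at 24.6, 32.2 and 25.7 in WT_L2C. Hist1h1a, a linker histone that oocytes already hold, was one of the most abundant RNAs, at 968, 1030 and 1100 in WT_L2C and 387, 424 and 442 in WT_MII libraries (1.30). The 2 lower members were Hist1h2aa (-0.56) and Hist1h2bc (-0.59), the last not called under 6 of the alternatives, namely without WT_L2C replicate 1 or 2, without WT_MII replicate 1 or 2, with library weights and with no filter (limma adjusted p = 0.0628 to 0.140). In contrast to the 2-cell genes, the summed histone level was even over the WT_L2C libraries, at 4160, 4592 and 4838, against 1272, 1368 and 1364 in WT_MII libraries. Many of these genes are near-identical, and the canonical histone mRNAs lack a poly(A) tail, which a total RNA library keeps. Among variants, H2afz rose by 4.74 and H2afx by 2.43, and the linkers H1foo and H1fx (-2.17) fell.

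Nucleotide synthesis genes included several very large rises, and more replication genes were called lower than higher. Of 32 nucleotide synthesis genes 13 were called higher (40.6%, against 37.4% of all genes) and 6 lower (18.8%, against 36.0%). Without WT_L2C replicate 3 the counts were 19 and 8. Besides Prps1, Impdh2, the committed step to guanine nucleotides, was at 185, 125 and 57.9 in WT_L2C and 0.737, 0.776 and 0.709 in WT_MII libraries (6.00), Nme2 rose by 4.95 and Ppat, the first step of purine synthesis, by 4.74. Adss, of the adenine branch, fell (-2.18). Of 49 replication genes 12 were called higher (24.5%) and 21 lower (42.9%, against 36.0% of all genes). The higher ones included cyclin E1, Ccne1, at 193, 153 and 138 in WT_L2C and 1.61, 1.92 and 1.52 in WT_MII libraries (5.91, limma adjusted p = 1.72e-06). Orc5 (-2.49), Rpa1 (-2.47) and Gins2 (-2.31), of origin recognition, single-strand binding and the replicative helicase, fell. The serine and stress response genes Sesn2 (5.77), Psat1 (5.06), Slc1a5 (3.80) and Trib3 (3.40) rose, within 13 higher and 7 lower of 22.

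Among chromatin regulators, several histone demethylases rose, and the DNA methylation maintenance genes Dnmt1 and Uhrf1 fell. Of 43 histone methylation enzymes 24 were called higher (55.8%, against 37.4% of all genes) and 7 lower (16.3%, against 36.0%), with a median of 0.94. Without WT_L2C replicate 3 the counts were 26 and 11. The 4 largest differences were all of lysine demethylases. Kdm5b, which removes methyl groups from H3K4, was at 126, 114 and 89.7 in WT_L2C and 0.515, 0.261 and 0.425 in WT_MII libraries (6.30, limma adjusted p = 1.64e-06). Kdm4c (3.92), Kdm3a (3.86) and Kdm5a (3.80) rose as well, while the H3K9 methyltransferase Setdb1 (-1.79) and the demethylase Kdm1b (-1.03) fell. Of 54 BAF and other remodeler genes 26 were called higher (48.1%) and 15 lower (27.8%), with a median of 0.30. Mta2 (6.52), its partner Hdac1 (4.50), Ruvbl1 (4.00) and Chd1 (3.32) rose, and Ruvbl2, which pairs with Ruvbl1 in a ring, fell (-1.71). Smarca4 rose by 1.21 (adjusted p = 0.0018) and its paralog Smarca2 fell by 0.64 on the log2 scale, though not past the threshold without any 1 of the WT_MII libraries (adjusted p = 0.0588 to 0.0644). Of 20 DNA methylation genes 7 were called higher and 8 lower. The maintenance methyltransferase Dnmt1 fell to 42.7, 35.7 and 40.5 in WT_L2C libraries, against 385, 376 and 393 in WT_MII (-3.25), and its cofactor Uhrf1 fell too (-2.42), while Tet1, which oxidises methylcytosine, rose by 3.16.

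More nuclear transport genes and lineage factors were called higher than lower. Of 30 nuclear import and export genes 20 were called higher and 4 lower (median 1.11), led by the importin alpha Kpna1 (5.30) and Tnpo3 (5.09). Of 67 RNA polymerase II and general factor genes 30 were called higher (44.8%, against 37.4% of all genes) and 17 lower (median 0.19, or 0.31 without WT_L2C replicate 3 and 0.04 with FPKM as deposited). The elongation kinase Cdk9 was at 26.8, 26.8 and 27.8 in WT_L2C and 1.19, 1.31 and 1.42 in WT_MII libraries (3.61), and the initiation factor Gtf2b at 11.3, 19.1 and 27.1 against 171, 175 and 171 (-3.19). Of 25 tested pluripotency and lineage factors, out of 41 in the files, 17 were called higher, 3 lower and 8 were kept. Members under an FPKM of 1 in all oocyte libraries were tested only through their embryo level, so part of this share was set by the filter. The median of the list was 1.16, or 0.39 with no filter. Klf5, a Krüppel-like factor needed by early embryos, was at 33.7, 30.5 and 33.3 in WT_L2C and 0, 0.0758 and 0.0423 in WT_MII libraries (5.01 ± 0.14 SE, adjusted p = 1.64e-06). Dppa4 (4.10), the trophectoderm factor Tead4 (3.28) and Tbx3 (3.21) rose, and Gata3 (-1.24), Prdm1 (-1.25) and Sall4 (-0.44) fell, Sall4 not past the threshold without WT_MII replicate 1 or 3 (adjusted p = 0.0690 and 0.0792). Nr5a2, a nuclear receptor, rose by 1.49. Pou5f1, the gene of OCT4, was kept, at 75.8, 102 and 166 in WT_L2C and 99.2, 92.5 and 95.5 in WT_MII libraries (0.18, adjusted p = 0.56), and Cdx2 did not reach the test.

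**Figure D3:**
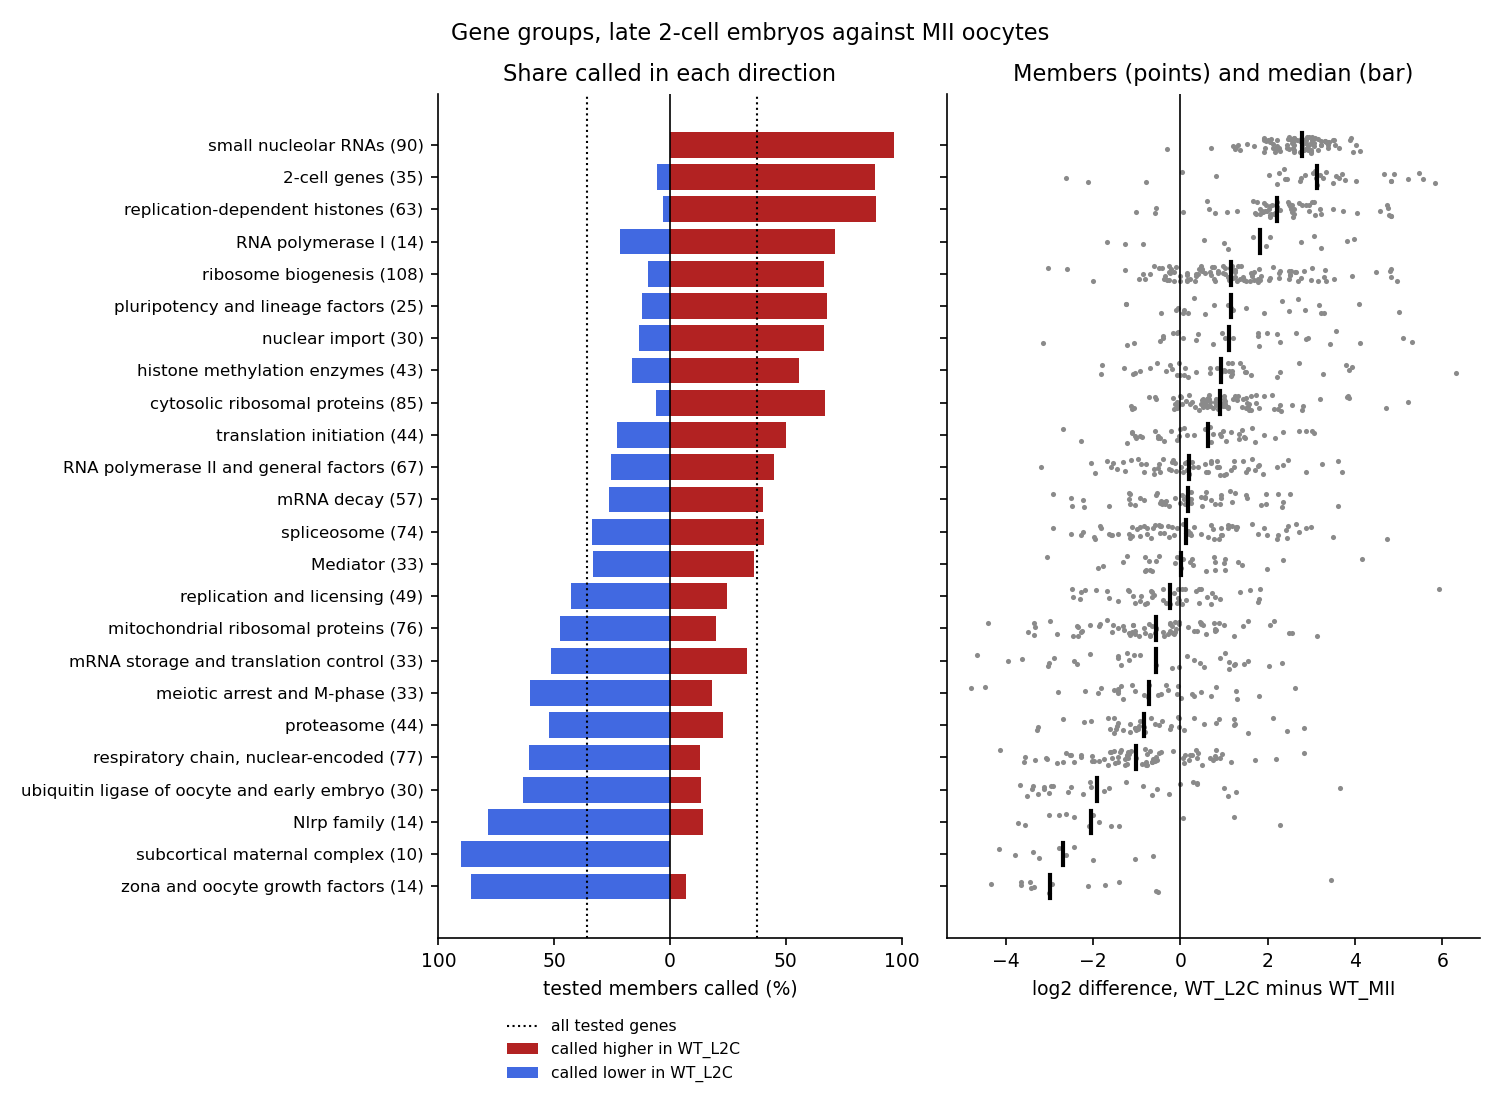
Left, share of the tested members of 24 gene lists called lower (blue) or higher (red) in WT_L2C, with the shares of all tested genes as dotted lines (36.0% lower and 37.4% higher). Right, the log2 difference WT_L2C minus WT_MII of each member (points) and the median of the list (bar). Lists run from small nucleolar RNAs, with 87 of 90 called higher, to the zona and oocyte growth factors, with 12 of 14 called lower.

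RNAs for the surface and signals of the oocyte fell. Of 14 zona and growth factor genes 12 were called lower and 1 higher (median -2.98, against 36.0% of all genes called lower). Zp3, a zona pellucida glycoprotein, was at 21.6, 16.1 and 16.8 in WT_L2C and 152, 158 and 151 in WT_MII libraries (-3.02 ± 0.14 SE, limma adjusted p = 5.42e-06), and Zp1 fell by 3.43. Gdf9, a growth factor for cumulus cells and one of the most abundant oocyte RNAs, was at 72.7, 112 and 116 in WT_L2C and 980, 1010 and 1030 in WT_MII libraries (-3.35). Gja4, the connexin that joins oocyte and granulosa cells, fell by 4.34, and Fgf8, Oosp2 and Astl, the protease that hardens the zona, by 3.66, 3.66 and 3.45. The member called higher was another connexin, Gja1, at 17.6, 10.6 and 5.10 in WT_L2C and 0, 0.0152 and 0.0205 in WT_MII libraries (3.44). Among junction and polarity genes, Epcam rose by 5.04 and the laminin chain Lamb1 fell by 3.67.

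The subcortical maternal complex, a protein assembly needed for the first divisions, had lower RNA of nearly every member. Of 10 genes 9 were called lower (median -2.70). Padi6 was at 27.0, 27.9 and 36.9 in WT_L2C and 536, 566 and 569 in WT_MII libraries (-4.16, limma adjusted p = 2.48e-06), and Ooep (-3.79), Tle6 (-3.38) and Khdc3 (-3.25) fell alike. Zbed3, a further member of this list, was the exception and, by group mean, the most abundant RNA of both groups. It was at 1250, 1650 and 3390 in WT_L2C and 3000, 2940 and 2960 in WT_MII libraries (-0.63, adjusted p = 0.133), with the third embryo library above the oocytes and the other two below. Without that library the difference of Zbed3 was -1.05 and called (adjusted p = 0.000536). In the other embryo libraries Rn45s and Rpph1 stood above Zbed3, so its first place in the embryo rested on the third. Of 14 Nlrp genes, an inflammasome-related family used in the oocyte, 11 were called lower and 2 higher (median -2.04), with Nlrp4b (-3.72), Nlrp9b (-3.56) and Nlrp14 (-3.02) the largest falls and Nlrp12 (1.22) and the pseudogene Nlrp5-ps (2.27) the rises. A list of 30 oocyte and embryo ubiquitin ligase genes had 19 lower and 4 higher members (median -1.90), among them Fbxw15 (-3.67), Fbxw28 (-3.51) and Fbxw21 (-3.39), whose near-identical relatives may share reads. Zyg11a rose by 3.65.

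Regulators of meiosis and of stored mRNA fell in part. Of 33 meiotic arrest and M-phase genes 20 were called lower (60.6%, against 36.0% of all genes), 6 higher (18.2%, against 37.4%) and 10 were kept. Mos, the kinase that holds the egg at metaphase, was at 2.98, 3.90 and 2.30 in WT_L2C and 105, 111 and 113 in WT_MII libraries (-4.79 ± 0.17 SE, limma adjusted p = 2.64e-06). The checkpoint kinase Bub1b fell by 4.48 and Aurkc, the Aurora kinase of meiosis, by 2.81, the last at 5.36, 4.94 and 23.7 in WT_L2C and 66.4, 67.9 and 68.3 in WT_MII libraries. The mitotic genes Cdc25c (2.62), Cdc20 (1.79), Cdk1 (1.29) and Aurkb (1.28) rose. Of 33 mRNA storage and translation control genes 17 were called lower (51.5%) and 11 higher (33.3%, near the share of all genes). Zar1 and Zar1l, which hold stored mRNA in the oocyte, fell by 3.64 and 3.96, and Dazl, a germ-cell RNA-binding protein, by 3.04. Among those that rose were Igf2bp1 (2.03), Cpeb2 (1.45), Cpeb4 (1.12) and the helicase Ddx6 (1.11). Of 57 mRNA decay genes 23 were called higher (40.4%, near the share of all genes) and 15 lower (26.3%). Their median was 0.17, or 0.05 without WT_L2C replicate 3. Smg5, of nonsense-mediated decay, rose by 3.61, and the decapping cofactors Lsm3 (-2.91), Dcp1a (-2.48) and Edc4 (-2.22) and the CCR4-NOT subunit Cnot11 (-2.51) fell.

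RNAs for mitochondria and protein turnover were lower on balance. Of 77 nuclear-encoded respiratory chain genes 47 were called lower (61.0%) and 10 higher, with a median of -1.01. Ndufb4, of complex I, was at 11.4, 8.36 and 3.61 in WT_L2C and 85.8, 75.4 and 79.2 in WT_MII libraries (-3.32, limma adjusted p = 0.000149), whereas Uqcrc1 of complex III (2.82) and Atp5j of the ATP synthase (2.19) rose. Ndufa8, Atp5e and Ndufc2 had the largest falls of the list, and each was listed at 0 in WT_L2C replicate 2. Of 76 mitochondrial ribosomal protein genes 36 were called lower and 15 higher (median -0.55), or 33 and 19 without WT_L2C replicate 3 (median -0.33), with Mrps36 (-4.40), Mrpl48 (-3.50) and Mrps35 (-3.35) at one end and Mrpl20 (3.12) and Mrps26 (2.56) at the other. Their direction was thus opposite to that of the cytosolic ribosomal proteins, while the spread of members in each list ran over both signs. Of 44 proteasome genes 23 were called lower and 10 higher (median -0.83). Psma7, of the core ring, was at 19.9, 26.0 and 7.36 in WT_L2C and 162, 163 and 164 in WT_MII libraries (-3.29), and Psmd10 fell by 3.26, but Psme4, the activator used on acetylated histones, rose by 1.55. The polyubiquitin gene Ubb fell by 1.63 to 222, 240 and 312 in WT_L2C libraries, against 797, 785 and 797 in WT_MII. Mitochondria-encoded genes had no symbol in the files used here.

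Several other complexes had members at both ends and a median near that of all genes. For 74 spliceosome genes 30 were called higher and 25 lower (median 0.12). Snrnp35 (4.72) and Cdc5l (3.50) rose, and Lsm3 (-2.91), Eftud2 (-2.50) and Prpf6 (-2.27) fell. The 33 Mediator genes split into 12 higher and 11 lower (median 0.01), among them Med29, at 47.1, 55.2 and 45.7 in WT_L2C and 1.93, 1.63 and 1.92 in WT_MII libraries (4.15), and Med17, at 12.6, 7.34 and 4.43 against 67.8, 71.1 and 70.1 (-3.05). Of 71 chaperone genes 26 were called higher and 25 lower. Dnajb9, a chaperone of the endoplasmic reticulum, rose by 4.94 and the chaperonin subunit Cct6a by 4.77, while Cct5 of the same ring fell by 1.93, Dnajc11 by 3.55 and Hsp90aa1 by 2.17. The medians of the Mediator, spliceosome, glycolysis and histone variant lists changed sign under 1 or more of the alternative settings, and 37 of 41 lists with at least 5 tested members kept theirs under all of them.

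Kept RNAs included several of the most abundant in the embryo. Dppa3, which protects the maternal genome from demethylation, was at 591, 480 and 871 in WT_L2C and 796, 736 and 692 in WT_MII libraries (-0.24, 95% interval -0.76 to 0.28). Trim61 was at 577, 584 and 904 in WT_L2C and 556, 567 and 543 in WT_MII libraries (0.28), and Spin1, a reader of methylated histone H3, at 463, 533 and 869 against 526, 495 and 502 (0.24). In all 3 the highest embryo library was the third, and without it Dppa3 was called lower (-0.47, limma adjusted p = 0.0103). Npm1, the nucleolar chaperone nucleophosmin, was kept and also called, at 454, 361 and 399 in WT_L2C and 296, 294 and 286 in WT_MII libraries (0.46, limma adjusted p = 0.00976). The others of the 10 most abundant kept genes were Mtus1, Mdm4, which restrains p53, Oog3, Strn, Atxn2l and Parp12, with differences from -0.18 (Mtus1) to 0.66 (Strn). Of these, Oog3 (-0.55) and Parp12 (-0.32) were called lower without WT_L2C replicate 3. Nucleolin, Ncl (-0.31), and beta-actin, Actb (0.22), were kept too. Btg4, the adaptor that brings the deadenylase to maternal mRNAs, could not be placed: it was at 435, 530 and 1140 in WT_L2C and 816, 741 and 758 in WT_MII libraries (-0.26, 95% interval -1.07 to 0.54), and at -0.68 without WT_L2C replicate 3 (limma adjusted p = 0.00159).

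For several proteins the oocyte uses its own form of a gene that other cells replace by a relative. A set of 16 pairs was examined, in which 1 gene was assigned as the oocyte form and its relative as the broad form. The assignment was a choice, and use in other cells was not measured. It did not hold for Zar1l, the broad form set beside Zar1, which averaged 202 in WT_MII and 12.3 in WT_L2C and was itself lost (-3.96). In WT_MII the broad form Kpna2 also averaged more than Kpna7 (245 and 113), and Fbxo5 more than Fbxo43 (47.4 and 26.4). The oocyte form's part of the pair's summed FPKM was lower in every WT_L2C than in every WT_MII library in 13 pairs, higher in 1 and overlapping in 2. In 9 pairs the oocyte form was called lower and the broad form called higher. The greatest difference in the ratio was between cytoplasmic poly(A)-binding proteins. Pabpc1l averaged 10.8 ± 3.67 in WT_L2C and 91.0 ± 3.46 in WT_MII (SD, n = 3 each), and Pabpc1 averaged 188 ± 31.6 in WT_L2C and 3.79 ± 0.552 in WT_MII, so that the oocyte form made up 3.75%, 4.44% and 8.92% of the pair in WT_L2C and 95.2%, 96.5% and 96.3% in WT_MII libraries. The nuclear poly(A)-binding pair moved alike, with Pabpn1l at 1.63%, 1.01% and 0.938% in WT_L2C and 57.0%, 63.2% and 58.6% in WT_MII libraries. For the linker histones H1foo made up 47.9%, 58.4% and 66.3% of its pair with Hist1h1c in WT_L2C and 99.5%, 99.5% and 99.7% in WT_MII libraries.

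The survival genes moved in the same sense. Bcl2l10, the BCL2 relative of oocytes, was at 51.7, 70.4 and 286 in WT_L2C and 531, 502 and 540 in WT_MII libraries (-2.36), while Mcl1 was at 67.3, 69.1 and 46.2 in WT_L2C and 2.19, 1.99 and 2.18 in WT_MII libraries (4.29). The third embryo library held by far the most Bcl2l10 of its group, 86.1% of the pair against 43.5% and 50.5% in replicates 1 and 2. Nucleoplasmin Npm2 fell (-2.66) and its relative Npm1 did not, the importin Kpna7 fell (-3.15) while Kpna2 was kept (-0.41), and the cap-binding protein Eif4e1b fell (-1.42) while Eif4e rose (0.92). Y-box proteins followed, with Ybx2 at -1.06 and Ybx1 at 1.22. The lactate dehydrogenase Ldhb fell to 98.7, 127 and 240 in WT_L2C libraries, against 1120, 1200 and 1150 in WT_MII, and still made up 95.6% to 97.1% of its pair with Ldha in WT_L2C. Btg4 with Btg1 and Wee2 with Wee1 kept over 95% of their pairs in the oocyte form. Fbxo43 (Emi2), which holds the egg at metaphase, was the pair with the opposite direction, with Fbxo43 kept and Fbxo5 (Emi1) called lower (-1.03), though not without WT_L2C replicate 1 or 2 (limma adjusted p = 0.0579 and 0.0607).

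**Figure D4:**
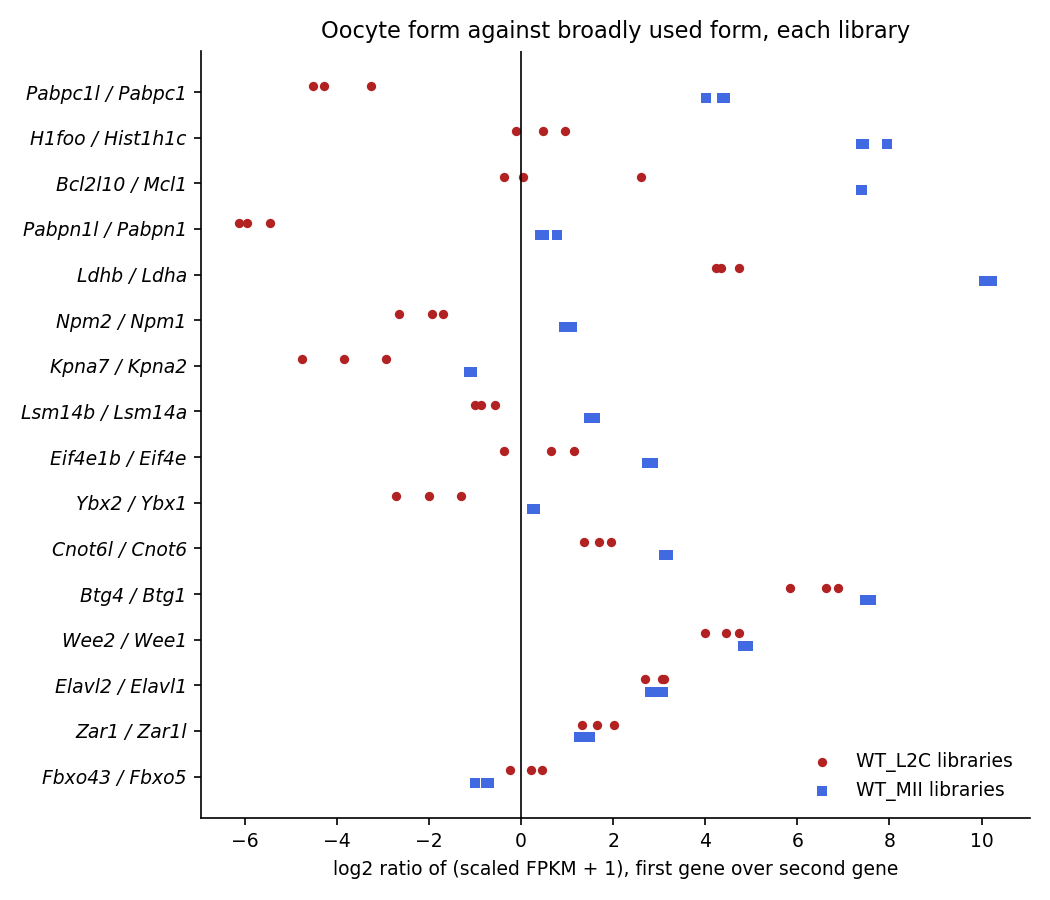
For 16 pairs of a gene assigned as the oocyte form and a relative assigned as the broad form, the log2 ratio of (scaled FPKM + 1) of the first over the second is shown. Red circles are WT_L2C libraries and blue squares are WT_MII libraries. The WT_L2C points lie to the left of the WT_MII points in 13 pairs, by -8.29 on average for Pabpc1l over Pabpc1, and to the right for Fbxo43 over Fbxo5.

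The classes differed in the kind of gene they held. RefSeq gave a type to 10935 tested genes. Of 84 tested snoRNA genes 68 were gained and 0 kept, and of 28 tested miRNA host loci or precursors 15 were gained. Those near 0 in oocytes were tested only through their embryo level. Among 262 long noncoding RNA genes 87 were called higher and 101 lower (median -0.21), and among 10465 protein-coding genes 3852 were higher and 3804 lower (median -0.02). Mature miRNAs are not captured by such libraries, so miRNA rows reflect precursors or overlapping transcripts. In the annotation (GENCODE vM21), the longest coding transcript of lost genes had a median length of 2130 bases, against 3460 for kept, 2670 for gained and 2930 for all tested genes. Lengths of the 3' UTR had medians of 466 bases in lost, 1130 in kept, 902 in gained and 912 in all tested genes. Coding lengths were 1220, 1640 and 1260 bases in lost, kept and gained genes. Single-exon genes made up 7.82% of the gained, 1.35% of the kept and 1.75% of the lost genes. Which isoform the embryo or the oocyte uses was not measured, and these are descriptions of the classes with no test.

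By chromosome, the share of tested genes that were gained ran from 9.28% on chromosome 6 to 17.6% on the X chromosome (12.4% over all), and the share lost from 5.44% on chromosome 2 to 10.6% on chromosome 9 (7.60% over all). These shares were not tested against each other. Some neighbouring tested genes formed runs of 1 class. The longest run of lost genes held 13 Fbxw genes at chr9:109139454-109790660 (GRCm38). The longest run of gained genes held 10 genes at chr3:93068823-94178193, among them Tdpoz1 to Tdpoz5. Histone genes gave 2 runs of 8 at chr13:21753377-21832197 and chr13:23561475-23621124, and Zscan4 genes a run of 5 at chr7:10794241-11402318. Several of these runs hold near-identical copies, and for such copies their own changes and reads shared between them cannot be told apart.

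Set on the course of the wild-type stages, losses began earlier than gains. The median log2 level of lost genes was 4.77 in MII oocytes, 4.41 in PN3 zygotes, 3.48 in E2C embryos and 2.08 in L2C embryos. That of gained genes was 0.74, 0.79, 1.65 and 4.15 at the same stages, and that of kept genes stayed between 3.30 and 3.43. The stage mean had passed the middle between the MII and L2C levels by PN3 in 8.27% of lost and 0.147% of gained genes, and by E2C in a further 43.9% and 17.6%. The remaining 47.8% of lost and 82.3% of gained genes passed it only at L2C, or 50.8% and 80.6% without WT_E2C replicate 2, a library with few genes above 0. Mos was among the early losses, with means of 110 (MII), 6.73 (PN3), 2.52 (E2C) and 3.06 (L2C). Dnmt1 fell mainly between PN3 and E2C, with means of 385, 299, 66.9 and 39.6 at the same stages. These stages share the libraries of the net comparison, so the course describes it and is no separate test.

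**Figure D5:**
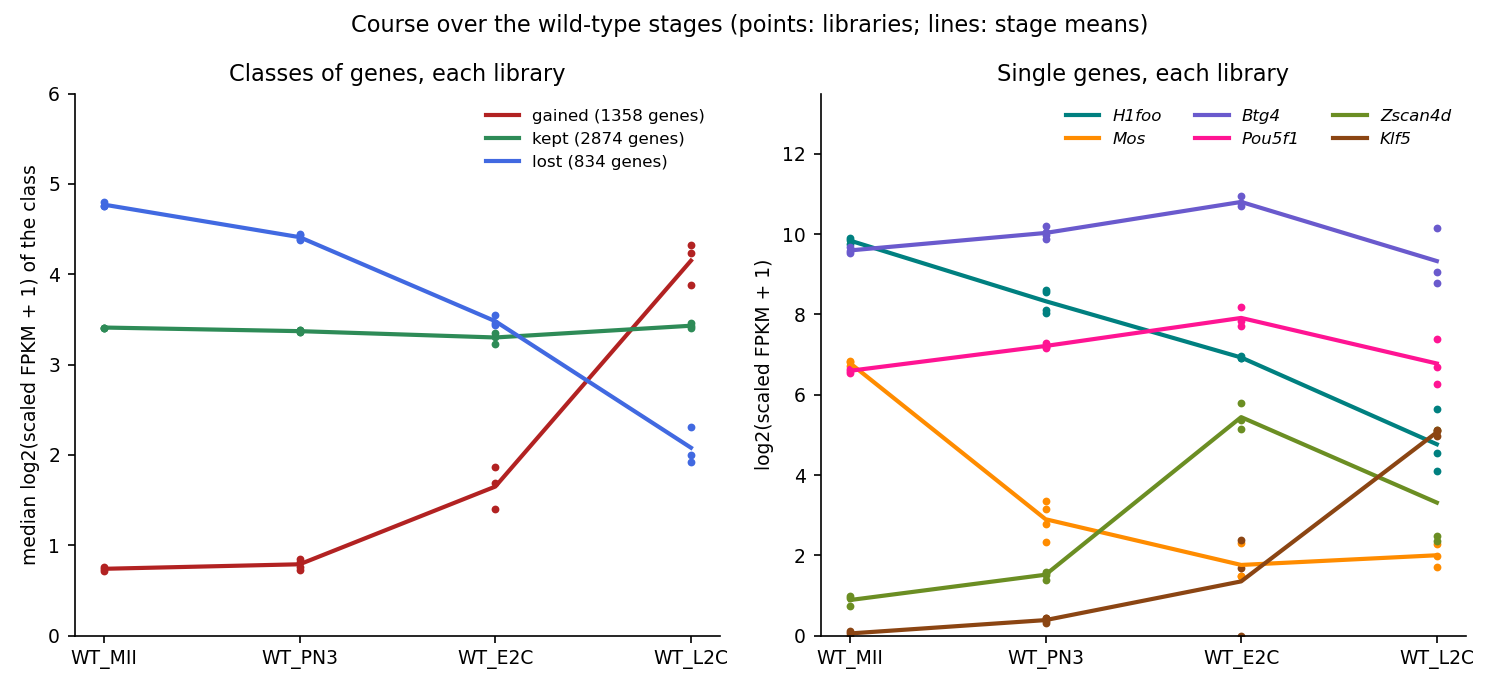
Left, the median log2(scaled FPKM + 1) of gained, kept and lost genes in each wild-type library (points) by stage, with lines through the stage means. Right, the same scale for 6 single genes. Lost genes fall from PN3 on, gained genes rise mainly between E2C and L2C, and Zscan4d, Btg4 and Pou5f1 are highest at E2C.

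Some net differences hid a peak in between. For 846 genes (7.71%) the 3 WT_E2C libraries lay above all WT_MII and all WT_L2C libraries, and 110 of these had an E2C mean at least 1 (log2) above both. Of the 110, 43 were kept over the whole span, 31 were undecided, 22 lower by less than 4-fold, 6 lost, 6 gained and 2 higher by less than 4-fold. Without WT_E2C replicate 2 the counts were 1272 and 130. Zscan4d averaged 0.854 (MII), 1.87 (PN3), 43.3 (E2C) and 14.1 (L2C). Btg4 averaged 772, 1050, 1790 and 703 at these stages. Tcl1b1, of a family of AKT kinase cofactors, stood at 45.8, 57.0 and 210 in WT_L2C and 74.7, 75.8 and 79.9 in WT_MII libraries, with a mean of 271 at E2C, and its net difference was 0.09, or -0.58 without WT_L2C replicate 3. FPKM is a share of the library, so new RNA of a gene at E2C and a loss of other RNAs cannot be told apart.

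RNA was spread a little more evenly over genes in the embryo. The 100 highest genes took 14.6%, 14.9% and 17.5% of all FPKM in WT_L2C and 18.1%, 18.1% and 18.1% in WT_MII libraries. The means were 15.7% ± 1.56 and 18.1% ± 0.0352 (SD, n = 3 each), and the groups did not overlap (difference -2.42 percentage points, exact permutation test, two-sided, p = 0.1, the smallest that 3 against 3 allows). For the 10 highest genes the shares were 4.47%, 4.43% and 5.50% in WT_L2C and 4.68%, 4.68% and 4.66% in WT_MII, which overlap. By group mean, the 10 most abundant RNAs of the embryo were Zbed3, Rn45s, Rpph1, Hist1h1a, Ccdc6, Khdc1b, Btg4, Trim61, Dppa3 and Vaultrc5. Those of the oocyte were Zbed3, Ldhb, Gdf9, H1foo, Zfp57, Gm15698, Hsp90aa1, Ubb, Btg4 and Dppa3. Only Zbed3, Btg4 and Dppa3 stood in both.

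The same span was crossed by embryos without maternal Smarca4, and the difference between the 2 changes was tested as an interaction over WT_L2C, WT_MII, KO_L2C and KO_MII libraries. Smarca4 was the only gene of 10974 called (0.00911%), with KO_L2C at 22.0 ± 0.602 (SD, n = 3) and KO_MII at 0.222 (mean, n = 2), against WT_L2C at 68.8 ± 18.8 and WT_MII at 28.5 ± 2.36 (n = 3 each). Its rise was 3.03 (log2) larger in KO than in WT (limma adjusted p = 0.00251). This count rested on WT_L2C replicate 3: without it 2733 genes were called (24.9%). That a gene was not called with all libraries therefore does not show that its change was alike in both genotypes. The gained genes named above held high levels in KO_L2C too, for example Prps1 at 135 ± 5.18 and Klf5 at 38.0 ± 6.12 (SD, n = 3 each), against 185 ± 14.8 (Prps1) and 32.5 ± 1.76 (Klf5) in WT_L2C. H1foo averaged 45.3 in KO_L2C, against 29.3 in WT_L2C.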

How the data were processed

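Total RNA depleted of ribosomal RNA was sequenced as stranded, paired-end 150 bp libraries, per the labels' protocols. The authors deposited 1 FPKM value per gene symbol and library. Builds mm10 and GRCm38 are listed in the submitters' processing notes, as are HTSeq, StringTie, HISAT2 and, with its version, Trim Galore 0.4.5. The deposited FPKM hold no counts, so depth is unknown, and 0 per-sample columns were left unmapped. Libraries were grouped by their titles.

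FPKM was rescaled by median ratios over 7828 genes at 1 or more in all 6 libraries. Genes at an FPKM of 1 in 3 of 6 libraries were fitted on log2(scaled FPKM + 1) with limma 3.58.1 in R 4.3.3 (trend and robust variance, Benjamini-Hochberg over all 10974 genes), after the script was tested on simulated data. Tables and figures used Python 3.11.15 with pandas 2.3.3, numpy 2.4.6, scipy 1.17.1 and matplotlib 3.10.9. RefSeq names matched 99.6% of tested genes, and 12 symbols had been turned into dates. A promoter was found for 79.7% of tested genes, under 80%, so a comparison of motifs between classes is void.

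Named genes are the 10 largest rises and falls with groups that do not overlap, the 10 most abundant genes of each group and of the kept class, the 10 largest peaks at E2C, the 4 called members of each list with the largest difference and those called against its majority, all pair members and a short list of watched genes. From these a selection is printed. Snora15, Snora23, Snord58b and Tcstv1 were added after their values were seen. The gene lists and pairs were chosen with earlier results of these data known. Alternatives were other scalings, a pseudocount of 0.1, other filters, other libraries in the fit, library weights, a replicate block and leaving out each library.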

Additional observations from a re-analysis of the deposited data

Results flagged for a closer look

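The change of Smarca4 over the span differed between genotypes by a test of the difference itself. Its log2 rise was 3.03 larger in KO than in WT (limma interaction, adjusted p = 0.00251), with means of 22.0 in KO_L2C and 0.222 in KO_MII against 68.8 in WT_L2C and 28.5 in WT_MII. The KO_L2C mean lay below the WT_L2C mean, so the larger log2 rise goes with a lower end level and a start near 0.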

How the results depend on the processing

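The counts of genes called, higher, lower and kept stayed within 1.5 times the reported ones under every alternative, apart from the following, but the balance of directions turned: FPKM as deposited called 3770 higher and 4301 lower, and a minimum FPKM of 5 called 2818 and 2967. Kept genes numbered 2186 with TPM, 2080 with a pseudocount of 0.1 and 1934 with a minimum FPKM of 5. With no filter on low values 9448 genes were kept, since genes near 0 in both groups then count as kept. The share of the 10 highest genes differed by 0.13 percentage points (exact permutation p = 1.0), against -2.42 for the 100 highest. The genotype interaction called 2733 genes without WT_L2C replicate 3, and 2 each without KO_L2C replicate 1 or KO_MII replicate 2, and the cause was not tested. Over the libraries left out in turn, 6979 to 8895 genes were called, 3639 to 4525 higher and 3340 to 4370 lower, 2106 to 3252 were kept, 1 to 2733 had an interaction, and 21 of 41 list medians lay above 0 each time. Tcl1b1 ranged over -0.58 to 0.51 and Wee2 over -0.44 to 0.33, the lowest of each being the value without WT_L2C replicate 3. Of 226 named genes 209 were called, and 10 lost their call under at least 1 alternative. FPKM as deposited moved the median of all genes by -0.13. Replicate numbers did not pair the libraries (correlations of deviations -0.0046, -0.041 and -0.095), and the replicate block called 7813 genes and kept 2665. Depth is unknown, so counting error could not be separated from other spread.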
